A study of Homo sapiens with 5 samples.

Results

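The E2F factors and the pocket proteins were followed in RPE1 cells, an established human line from retinal pigment epithelium, after treatment with doxorubicin. Their 10 genes were taken by symbol from the 26485 genes of the count table and comprise the activator factors E2F1, E2F2 and E2F3, the repressor factors E2F4 and E2F5, the atypical factors E2F7 and E2F8, and the pocket proteins RB1, RBL1 and RBL2. Poly-A RNA was sequenced from 5 libraries of wild-type cells harvested at 18 h. Of these, 2 came from cells given DMSO, the solvent, 2 from cells given doxorubicin at 0.2 μM and 1 from cells given doxorubicin at 0.34 μM. The sample titles and the results of the study carry these doses, and the text on the treatment, which gives 200 and 340 μM, was not followed. Doxorubicin is an anthracycline that intercalates into DNA and poisons type II topoisomerases. The 3 doxorubicin libraries were compared as a pooled group with the 2 DMSO libraries, as the study did, and the doses were then compared with each other. All libraries came from a single cell line. The methods of the study call the replicates biological, and the labels do not describe how they were made. The p-values set the difference between the groups against the spread between these libraries.

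E2F factors bind DNA as dimers with a DP protein, except for the atypical E2F7 and E2F8, which bind without one. In resting cells, or when CDK inhibitors are active, pocket proteins that lack phosphate bind E2F factors and keep their target genes silent. Cyclin D and cyclin E kinases phosphorylate the pocket proteins in G1, which frees the activators and turns on the genes of DNA replication. RBL1 (p107) and RBL2 (p130) join E2F4 or E2F5 and the MuvB core in the DREAM complex, which represses cell cycle genes, and E2F1 and RBL1 are themselves targets of E2F factors. RB1 is regulated largely through phosphorylation, which mRNA levels do not show.

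Counts per library summed to between 23773061 and 36725345, and 14187 genes passed the filter on low counts. Levels are given as CPM, counts relative to the library size scaled by the TMM method. All 10 genes passed the filter, lying above its limit of 0.377 CPM in both DMSO libraries, and all but E2F8 lay above it in each doxorubicin library as well. Of 12 markers of retinal pigment epithelium, 7 stayed under 1 CPM in every library, among them RPE65 with at most 0.305 CPM, and their summed level was 55.9 to 88.2 CPM in DMSO and 71.8 to 81.3 CPM in doxorubicin. The transcription factors MITF (at least 29.1 CPM) and OTX2 (at least 23.5 CPM) made up most of that sum, so the labelled cell type was met by its transcription factors and not by its visual cycle or pigment genes. Of 4 leukocyte markers, CD3E had no count in any library, while the summed level, nearly all of it PTPRC (CD45), was 0.191 to 0.313 CPM in DMSO and 1.08 to 2.20 CPM in doxorubicin, and its part in the results was not tested. The second replicates stood apart from the other libraries. The chi-square of the counts per degree of freedom was 117 between the DMSO replicates and 75.3 between the 0.2 μM replicates, and the 0.34 μM library lay closer to the first 0.2 μM replicate (9.01) than to the second (74.1). COL1A1, a collagen gene and a listed fibroblast marker, had 287 and 64.5 CPM in the DMSO replicates. It had 189 and 42.7 CPM in the 0.2 μM replicates and 151 CPM at 0.34 μM. CDH5, a listed endothelial marker, had 0.0763 and 2.19 CPM in the DMSO replicates. It had 0.155 and 2.87 CPM in the 0.2 μM replicates and 0.138 CPM at 0.34 μM. The other endothelial markers, PECAM1 and VWF, stayed under 1 CPM in every library, as did the fibroblast markers COL1A2 and LUM. The part of this difference between replicates in the results was not tested beyond a fit with a replicate block, given near the end. Results without single libraries are given for E2F1, E2F2, E2F8 and RBL1 and for some of the pathway genes. Where none are given, nothing is said on whether a call held.

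The sequences just before the RefSeq start of 6 of the genes (GRCh38.p14) are shown to place the genes that fell beside close relatives that passed no test. The reads were mapped to hg38, with no patch stated. E2F1, E2F2 and RBL1 are genes that fell, E2F3 and E2F7 are relatives of E2F1 and E2F8, and E2F4 is a repressor with a steady level. Each line holds the 100 bases before the start on the strand of the gene, and capitals mark the 8-letter E2F words TTTCGCGC, TTTGGCGC, TTTCCCGC and TTTGCCGC on either strand.
E2F1, chr20:33686386-33686485, minus strand: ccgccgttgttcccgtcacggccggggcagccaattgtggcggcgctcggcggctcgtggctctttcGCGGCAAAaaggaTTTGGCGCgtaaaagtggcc
E2F2, chr1:23531234-23531333, minus strand: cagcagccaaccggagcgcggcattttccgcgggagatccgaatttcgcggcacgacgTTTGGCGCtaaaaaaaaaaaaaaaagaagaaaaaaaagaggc
RBL1, chr20:37095998-37096097, minus strand: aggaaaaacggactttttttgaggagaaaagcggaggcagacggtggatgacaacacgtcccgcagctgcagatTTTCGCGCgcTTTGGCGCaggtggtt
E2F3, chr6:20401779-20401878, plus strand: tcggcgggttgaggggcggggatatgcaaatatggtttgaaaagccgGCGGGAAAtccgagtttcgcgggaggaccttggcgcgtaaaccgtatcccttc
E2F7, chr12:77065570-77065669, minus strand: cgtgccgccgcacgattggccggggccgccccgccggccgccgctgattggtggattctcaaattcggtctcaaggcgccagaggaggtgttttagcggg
E2F4, chr16:67192055-67192154, plus strand: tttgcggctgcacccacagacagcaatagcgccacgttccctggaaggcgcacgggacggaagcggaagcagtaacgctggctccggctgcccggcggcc

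E2F1 held 2 of these words, TTTGCCGC on the opposite strand with its first base at -33 from the start and TTTGGCGC at -20. E2F2 held TTTGGCGC at -42, and RBL1 held TTTCGCGC at -26 and TTTGGCGC at -16. E2F3, whose level did not pass the test, held TTTCCCGC on the opposite strand at -53. In the 250 bases before the start, no 8-letter word was found for E2F4, E2F7 or RBL2. The promoters of E2F5, E2F8 and RB1 were not analysed here. Of 35116 promoter entries of this length, 2.79% held at least 1 of the words. The words without their first T, which every 8-letter match also holds, were present in 10.9%. E2F7 held such 7-letter forms at -176 (TTGCCGC) and -133 (TTGGCGC), both on the opposite strand. E2F3 held a further 7-letter form, TTGGCGC at -24 on its own strand. A second E2F3 entry, 1735 bases from the gene's start, held no word of either length. The matches are letters in a window and show no binding. Among the tested genes with a promoter entry, 5.47% of 10362 held an 8-letter word, compared with 12.8% of the 321 genes that were called lower after doxorubicin and 3.73% of the 134 called higher.

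Doxorubicin was followed by lower mRNA levels of 2 of the 3 activators and of the pocket protein RBL1, while no gene of the family was called higher. With edgeR's quasi-likelihood test at a Benjamini-Hochberg adjusted p under 0.01, E2F1, E2F2 and RBL1 were called lower and none was called higher. Over all genes tested, 2.73% were called lower and 1.29% higher. With DESeq2, 4 of the 10 genes were called lower, the same ones and E2F8, and none higher, against 8.0% and 6.53% of all genes. limma voom called E2F8 and RBL1 lower and none higher, against 2.59% and 1.12% of all genes. At an unadjusted p under 0.05 edgeR gave 5 genes lower (E2F1, E2F2, E2F8, RB1 and RBL1) and 0 higher, against 15.6% and 15.2% of all genes. In the same 5 genes every doxorubicin library lay below both DMSO libraries. Such a separation was found for 23.4% of all genes in the lower and 24.3% in the higher direction. The median log2 fold change was -0.36 over the 10 genes and 0.01 over all genes tested. As the RNA came from whole cultures, fewer cells in a phase of the cell cycle and less RNA per cell cannot be told apart.

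**Figure D1:**
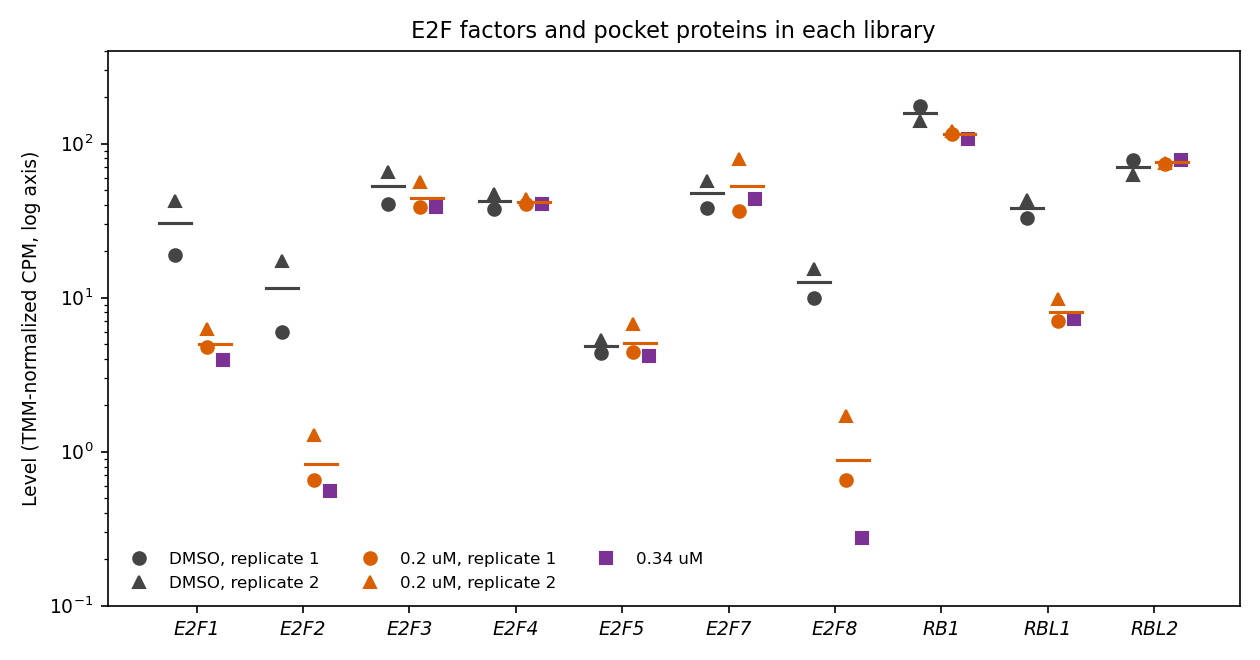
Level of each gene in each of the 5 libraries, as TMM-normalized CPM on a log axis, with short bars at the mean of the 2 DMSO libraries (grey) and of the 3 doxorubicin libraries (orange). E2F1, E2F2, E2F8 and RBL1 lie several fold lower in every doxorubicin library than in either DMSO library, and the second replicate of a condition often lies above the first.

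E2F1, the activator first found as a partner of RB1, lies on chromosome 20 from 33675477 to 33686385 and overlaps no other annotated gene. It had 18.9 and 42.4 CPM in DMSO, 4.79 and 6.28 CPM at 0.2 μM and 3.94 CPM at 0.34 μM. The groups did not overlap, although the DMSO replicates themselves differed 2.24-fold. The mean fell from 30.6 ± 16.6 CPM (SD, n = 2) to 5.00 ± 1.18 CPM (SD, n = 3), a log2 fold change of -2.62 (SE 0.37, 95% interval -3.51 to -1.73, edgeR adjusted p = 0.00772). Over the 6 pairs of a doxorubicin and a DMSO library the log2 difference ran from -3.40 to -1.58. The call was lost with limma voom (adjusted p = 0.0123) and without DMSO replicate 2 (log2 fold change -1.92, edgeR adjusted p = 0.0283), and without any 1 of the doxorubicin libraries (edgeR adjusted p between 0.0257 and 0.0284).

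E2F2, an activator of the same type, lies on chromosome 1 from 23505212 to 23531233, and a non-coding gene within it, LOC101928163, had no count in any library. Its levels were 5.99 and 17.2 CPM in DMSO, 0.657 and 1.29 CPM at 0.2 μM and 0.551 CPM at 0.34 μM. All doxorubicin libraries were below both DMSO libraries, which differed 2.87-fold from each other. The doxorubicin values rested on 17, 31 and 20 counts, and the exact 95% Poisson interval of the smallest was 9.90 to 27.2 counts, which covers counting error only. The mean of 11.6 ± 7.92 CPM (SD, n = 2) in DMSO and 0.832 ± 0.399 CPM (SD, n = 3) in doxorubicin gave a log2 fold change of -3.81 (SE 0.56, 95% interval -5.15 to -2.48, edgeR adjusted p = 0.00827). The call was lost with limma voom (adjusted p = 0.0154) and when any library was left out, with edgeR adjusted p-values between 0.011 and 0.0344.

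E2F3, the remaining activator, did not follow the other activators. On chromosome 6 from 20401879 to 20493714, it had 40.4 and 64.9 CPM in DMSO, 38.7 and 56.0 CPM at 0.2 μM and 38.8 CPM at 0.34 μM. The groups overlapped, with the second replicate of each condition above the first. Its log2 fold change was -0.24 (95% interval -0.88 to 0.39, edgeR adjusted p = 0.584), an interval whose lower end is above the upper end of the intervals of E2F1 and E2F2. Within each library the ratio of E2F1 to E2F3 counts, which needs no scaling between libraries, was 0.468 and 0.653 in DMSO and 0.124, 0.112 and 0.102 in doxorubicin. The ratio was lower in every doxorubicin library, and the exact two-sided permutation test gave p = 0.2, the smallest that 3 against 2 libraries allow. The same p was obtained for each of the 6 ratios computed, also after Benjamini-Hochberg adjustment. Each ratio set a gene with a large fall over a gene that was not called, so the separation of the ratios is no further support.

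Neither repressor changed past the threshold. E2F4, the main E2F factor of resting cells, lies on chromosome 16 from 67192155 to 67198918 and had 37.7 and 46.9 CPM in DMSO, 40.3 and 43.8 CPM at 0.2 μM and 40.2 CPM at 0.34 μM. The doxorubicin libraries lay between the DMSO libraries, and the log2 fold change was -0.029 (SE 0.16, 95% interval -0.42 to 0.36, edgeR adjusted p = 0.925). E2F5, which pairs with RBL2, had 4.35 and 5.29 CPM in DMSO, 4.41 and 6.69 CPM at 0.2 μM and 4.19 CPM at 0.34 μM. These groups overlapped as well (log2 fold change 0.079, SE 0.30, edgeR adjusted p = 0.889). E2F5, on chromosome 8 from 85177154 to 85214518, overlaps RBIS, which had more counts than E2F5 in every library, and no strand setting of the counting is stated.

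The atypical factors, repressors that lack the DP dimerization partner and act in S and G2 phase, were split. E2F7, on chromosome 12 from 77021251 to 77065569, had 38.0 and 56.9 CPM in DMSO, 36.2 and 79.8 CPM at 0.2 μM and 43.6 CPM at 0.34 μM. The 0.2 μM replicates differed 2.21-fold and enclosed both DMSO values, and the log2 fold change was 0.17 (SE 0.36, 95% interval -0.70 to 1.03, edgeR adjusted p = 0.799). E2F8, on chromosome 11 from 19224063 to 19241655, had 9.96 and 15.2 CPM in DMSO, 0.657 and 1.70 CPM at 0.2 μM and 0.276 CPM at 0.34 μM. Each doxorubicin library held a small remainder of the DMSO level, from 17, 41 and 10 counts, the last with an exact 95% Poisson interval of 4.80 to 18.4 counts.

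The log2 fold change of E2F8, -3.88 (SE 0.65, 95% interval -5.43 to -2.32), was the largest of the 10 in size, and with an edgeR adjusted p of 0.0128 it just missed the threshold. It passed with limma voom (adjusted p = 0.00754) and with DESeq2 (adjusted p = 5.1e-08). Leaving out single libraries gave log2 fold changes between -4.79 and -3.42 and edgeR adjusted p-values up to 0.0534. The ratio of E2F8 to E2F7 counts was 0.262 and 0.268 in the DMSO libraries, close together, and 0.0182, 0.0214 and 0.00632 in the doxorubicin libraries. E2F8 overlaps the antisense gene CSRP3-AS1, and reads of a gene and its antisense partner cannot be told apart without the strand.

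Among the pocket proteins the strongest change was in RBL1, whose level rises and falls with E2F activity in cycling cells. It lies on chromosome 20 from 36996349 to 37095997 and had 32.8 and 43.0 CPM in DMSO, 7.08 and 9.73 CPM at 0.2 μM and 7.27 CPM at 0.34 μM. The groups lay far apart relative to the spread within them. The mean fell from 37.9 ± 7.21 CPM (SD, n = 2) to 8.03 ± 1.48 CPM (SD, n = 3), with a log2 fold change of -2.24 (SE 0.22, 95% interval -2.77 to -1.72, edgeR adjusted p = 0.00211). RBL1 was called by all 3 tools, with an adjusted p of 0.00229 from limma voom and 5.6e-16 from DESeq2. Leaving out single libraries left the log2 fold change between -2.43 and -2.03, and the edgeR adjusted p rose above 0.01 without DMSO replicate 2 (0.0186), 0.2 μM replicate 1 (0.0111) or the 0.34 μM library (0.0105). It stayed under 0.01 without DMSO replicate 1 or 0.2 μM replicate 2.

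RB1, the retinoblastoma protein, had the highest level per kilobase of transcript among the pocket proteins in every library. On chromosome 13 from 48303751 to 48481890, it had 176 and 141 CPM in DMSO, 114 and 121 CPM at 0.2 μM and 108 CPM at 0.34 μM. Every doxorubicin library was below both DMSO libraries, by a small margin compared with RBL1. The log2 fold change was -0.47 (SE 0.16, 95% interval -0.84 to -0.098), and it did not pass the threshold with edgeR (adjusted p = 0.0939), DESeq2 (adjusted p = 0.038) or limma voom (adjusted p = 0.101). LPAR6, which lies within RB1, had at most 7 counts.

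RBL2, which takes the place of RBL1 in complexes of resting cells, had 78.6 and 62.6 CPM in DMSO, 73.7 and 74.5 CPM at 0.2 μM and 78.0 CPM at 0.34 μM. The doxorubicin libraries lay within the DMSO range, and the log2 fold change was 0.095 (SE 0.15, 95% interval -0.27 to 0.46, edgeR adjusted p = 0.720). RBL2 lies on chromosome 16 from 53434471 to 53491648 and overlaps AKTIP at its end. The ratio of RBL1 to RBL2 counts was 0.418 and 0.687 in DMSO and 0.0960, 0.131 and 0.0933 in doxorubicin, lower in every doxorubicin library.

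**Figure D2:**
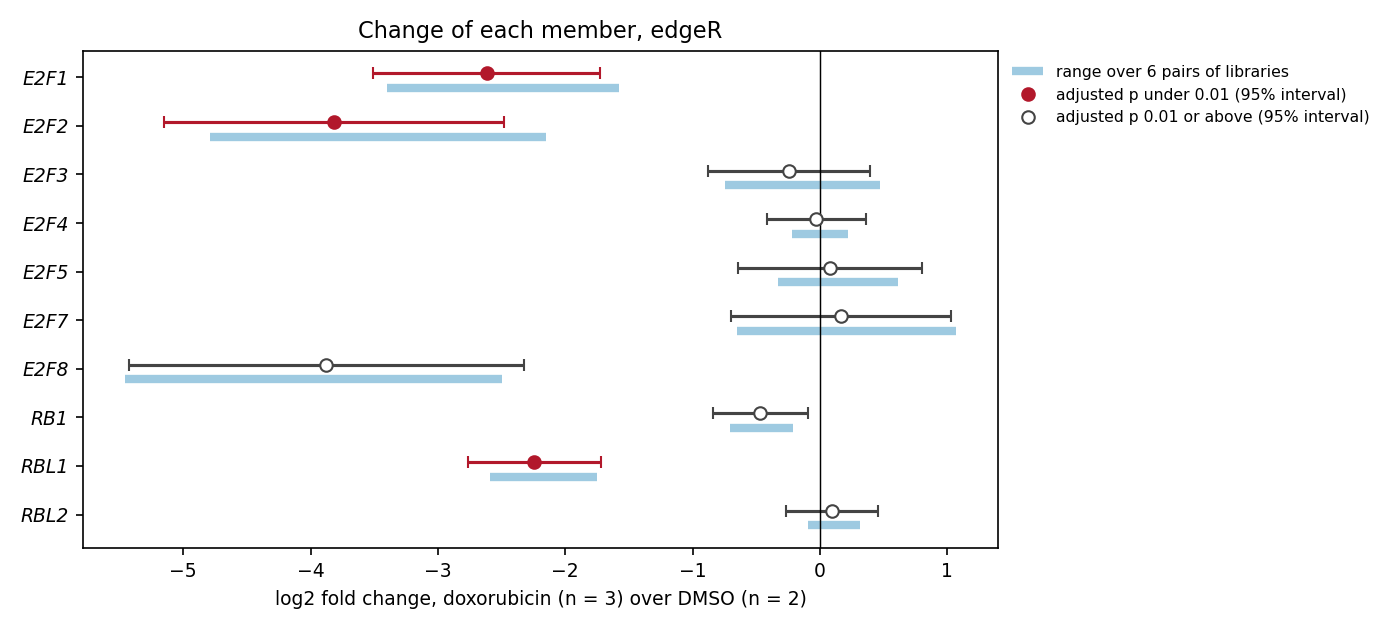
Log2 fold change of each gene, 3 doxorubicin over 2 DMSO libraries, from edgeR with its 95% interval, and below it the range of the log2 difference over the 6 pairs of libraries. E2F1, E2F2 and RBL1 (filled) passed the adjusted p of 0.01, E2F8 had an interval of -5.43 to -2.32 and missed it, and the intervals of E2F3, E2F4, E2F5, E2F7 and RBL2 cross 0.

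The make-up of the family was described from CPM per kilobase of the longest protein-coding transcript, which allows levels of different genes to be compared. E2F6, a factor that binds DNA but no pocket protein, was added to the 10 genes for this. In DMSO the levels per kilobase ran in the order RB1 (33.2), E2F4 (20.03), RBL2 (14.5), E2F1 (11.4), E2F3 (10.5), E2F7 (8.28), RBL1 (6.67), E2F6 (5.11), E2F8 (3.40), E2F5 (2.45) and E2F2 (2.23). Only RB1 and E2F4, and E2F4 and RBL2, were neighbours in this order whose libraries did not overlap. In doxorubicin the order was RB1 (24.0), E2F4 (19.6), RBL2 (15.5), E2F7 (9.29), E2F3 (8.83), E2F6 (4.11), E2F5 (2.60), E2F1 (1.86), RBL1 (1.41), E2F8 (0.237) and E2F2 (0.160). The pairs E2F7 and E2F3, E2F5 and E2F1, E2F1 and RBL1, and E2F8 and E2F2 overlapped there, and the first 3 places were the same genes in both groups with this length. With merged exon lengths RB1 and E2F4 again came first in both groups, but in DMSO RBL2 (8.71) fell below E2F1 (11.4) and E2F3 (10.1), while in doxorubicin it kept the third place.

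The activators made up 32.7% and 41.4% of the summed E2F level per kilobase in DMSO. In doxorubicin their share was 23.1%, 24.0% and 22.3%, below both DMSO libraries, and most of what remained was E2F3. The share of E2F4 and E2F5 was 40.6% and 32.2% in DMSO and 51.4%, 42.4% and 50.9% in doxorubicin. The size of this share depended on the length used, with means of 36.4% and 48.2% in the 2 groups, 25.4% and 35.9% with merged exon lengths and 22.1% and 28.9% without division by length. E2F7 and E2F8 together held 18.5% ± 0.470 (SD, n = 2) in DMSO and 19.8% ± 4.92 (SD, n = 3) in doxorubicin, and within this pair E2F7 held nearly all of the doxorubicin level. Without division by length these means were 27.5% and 31.8%. Of the pocket protein level, RBL1 made up 12.5% ± 3.76 (SD, n = 2) in DMSO and 3.44% ± 0.514 (SD, n = 3) in doxorubicin, while RB1 made up 60.9% ± 2.55 and 58.6% ± 1.80. A share rises when another falls, so these values describe proportions and not changes of single genes.

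**Figure D3:**
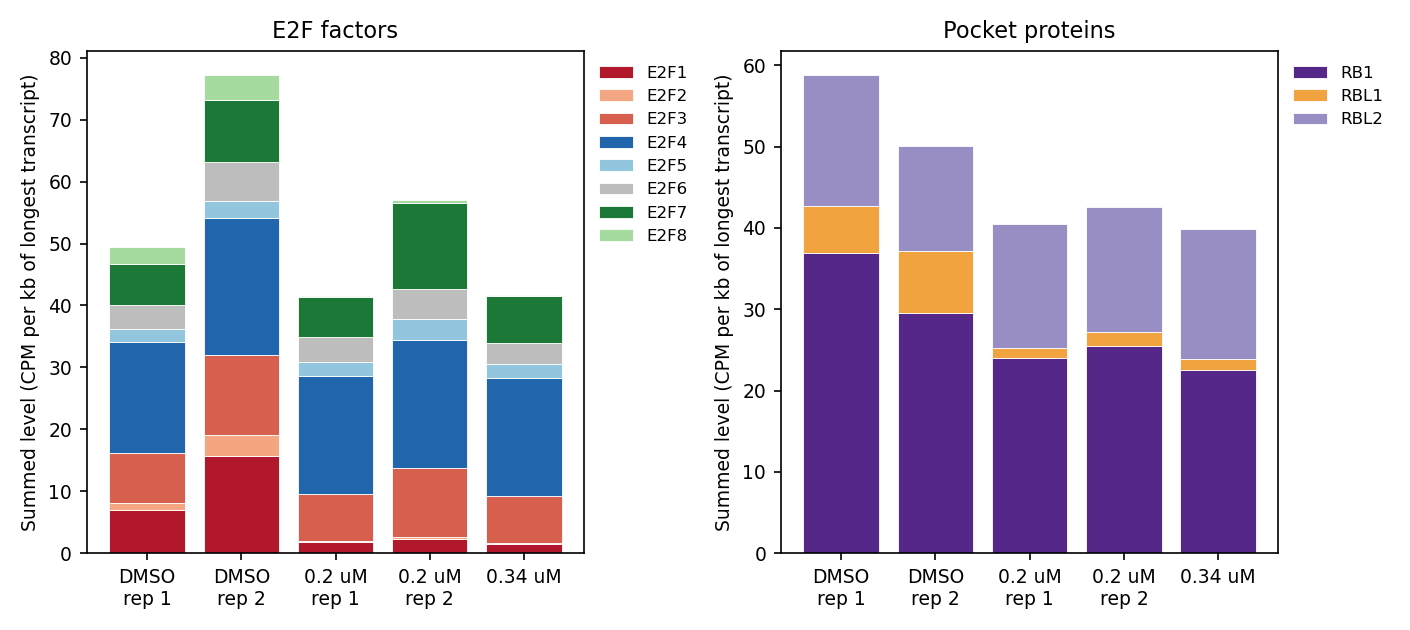
Summed level of the E2F factors (left) and the pocket proteins (right) in each library, in CPM per kilobase of the longest transcript, with the part of each gene in its own colour. The parts of E2F1, E2F2, E2F8 and RBL1 are smaller in each doxorubicin bar than in either DMSO bar, while those of E2F3, E2F4, E2F7 and RBL2 overlap between the groups and E2F7 is largest at 0.2 μM replicate 2.

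The doses were compared in a fit of 3 conditions, in which the lone 0.34 μM library has no replicate and takes its spread from the DMSO and 0.2 μM pairs. None of the 10 genes was called by edgeR, DESeq2 or limma voom. Over all genes none was called either. With each tool, the share of genes at an unadjusted p under 0.05 was far below 0.05, the share given when no gene differs. The comparison was therefore strict here, and the lack of calls does not show that the doses act alike. Of the 10 genes, E2F8 alone reached an unadjusted p under 0.05 with edgeR, at a log2 difference of -2.08 for 0.34 over 0.2 μM (95% interval -3.89 to -0.26). Its edgeR adjusted p was 1.0. That difference rested on 10 counts at 0.34 μM against 17 and 41 at 0.2 μM. For the other genes the intervals crossed 0, as for E2F1 (-1.74 to 0.76) and RBL1 (-1.05 to 0.64). Set against DMSO singly, 0.2 μM gave log2 fold changes of -2.47 for E2F1, -3.57 for E2F2, -3.41 for E2F8 and -2.17 for RBL1. The 0.34 μM library gave -2.96, -4.38, -5.49 and -2.38 in the same order. Both contrasts share the DMSO libraries, and neither called any of the 10 genes.

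The genes that work with the E2F factors and pocket proteins were taken as whole lists, so that the counts include the genes that did not move. The lists were chosen with earlier results of these data known, so their calls are no independent support. Without DMSO replicate 2, which leaves a single DMSO library, the edgeR calls in these lists were lost. Most of the lower calls over all genes were lost in that fit too. The DP partners, TFDP1 and TFDP2, lay lower in every doxorubicin library without passing the threshold. TFDP1, the main partner, had 148 and 214 CPM in DMSO, 113 and 126 CPM at 0.2 μM and 109 CPM at 0.34 μM (log2 fold change -0.64, edgeR adjusted p = 0.0691). TFDP2 had 43.8 and 42.5 CPM in DMSO and 31.6, 33.8 and 31.9 CPM in doxorubicin (log2 fold change -0.41, edgeR adjusted p = 0.102). For E2F6 the groups overlapped (log2 fold change -0.32, edgeR adjusted p = 0.464), and TFDP3 had at most 1 count in a library and was not tested. No gene of this list was called, with edgeR, DESeq2 or limma voom, and TFDP1 and TFDP2 had an unadjusted p under 0.05 with edgeR. Among all genes tested, 15.6% were lower at that p, and 23.4% lay lower in every doxorubicin library than in either DMSO library.

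Of the 8 genes for the cyclins and kinases that phosphorylate the pocket proteins, edgeR called 2 lower and 0 higher. Both lay on the cyclin E side, and over all genes edgeR called 2.73% lower and 1.29% higher. CCNE2, an E-type cyclin, had 11.1 and 29.3 CPM in DMSO and 0.928, 2.33 and 1.79 CPM in doxorubicin, a log2 fold change of -3.58 (SE 0.51, edgeR adjusted p = 0.00776), and it overlaps INTS8 and NDUFAF6. The CCNE2 call was lost with limma voom (adjusted p = 0.013) and when any library was left out (edgeR adjusted p between 0.0113 and 0.0338). CDK2, the kinase that cyclin E activates, had 55.2 and 65.1 CPM in DMSO and 19.3, 18.3 and 17.4 CPM in doxorubicin (log2 fold change -1.71, SE 0.16, edgeR adjusted p = 0.00163). CCNE1, the other E-type cyclin, named after its values were seen, did not pass (log2 fold change -1.19, edgeR adjusted p = 0.0391). The D-type cyclins and CDK4 and CDK6 had log2 fold changes from -0.46 to 1.30, and none of them passed. CCND1 and CCND2 are named after their values were seen. The 1.30 was that of CCND2 (SE 1.23), which had at most 40 counts. CCND1 had 1089 and 1493 CPM in DMSO and 1784, 2432 and 1709 CPM in doxorubicin (log2 fold change 0.61, edgeR adjusted p = 0.136). Such a separation in the higher direction was found for 24.3% of all genes. Over the list the median was -0.25, and DESeq2 called 3 lower, against 8.0% of all genes.

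Among 7 CDK inhibitors, edgeR called 1 higher and 1 lower, against 1.29% and 2.73% of all genes. CDKN1A, which encodes p21 and is a target of p53, had 294 and 258 CPM in DMSO, 2975 and 2366 CPM at 0.2 μM and 3358 CPM at 0.34 μM. All doxorubicin libraries lay far above the DMSO libraries, with a log2 fold change of 3.39 (SE 0.23, edgeR adjusted p = 0.000768). CDKN2C, which encodes p18, an inhibitor of CDK4 and CDK6, moved the other way, from 55.8 and 72.1 CPM to 15.1, 15.5 and 11.9 CPM (log2 fold change -2.18, SE 0.20, edgeR adjusted p = 0.00163). MDM2, another target of p53 used with CDKN1A as a check of the treatment, had a log2 fold change of 2.19 (edgeR adjusted p = 0.00246).

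In the list of the MuvB core with its partners MYB and FOXM1, edgeR called 4 of 8 genes lower and 0 higher. The shares over all genes were 2.73% and 1.29%. The median log2 fold change of the list was -1.18. The largest falls were in MYBL2, the B-MYB factor that joins MuvB in S phase, from 110 and 80.4 CPM in DMSO to 17.4, 8.27 and 10.2 CPM (log2 fold change -2.99, SE 0.33, edgeR adjusted p = 0.00324), and in FOXM1. FOXM1, which drives late cell cycle genes, went from 258 and 323 CPM to 47.1, 62.6 and 39.5 CPM (log2 fold change -2.55, SE 0.23, edgeR adjusted p = 0.00163) and overlaps ITFG2 and RHNO1. The other called genes, named after their values were seen, were the core subunits LIN9 (log2 fold change -2.27) and LIN54 (-1.43). Both of these calls were lost whichever doxorubicin library was left out (edgeR adjusted p 0.012 to 0.026 for LIN9, 0.0115 to 0.0234 for LIN54). The MYBL2 call held without 0.2 μM replicate 1 (0.00391) and was lost without either of the other doxorubicin libraries (0.0148 and 0.0114). The FOXM1 call held without each doxorubicin library (0.00478 to 0.00787). Leaving out DMSO replicate 1 leaves a single DMSO library. In that fit MYBL2, LIN9 and LIN54 were not called (log2 fold changes -2.75, -2.45 and -1.38).

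The E2F targets of G1/S, genes of replication licensing, nucleotide synthesis and chromatin assembly, held the most calls. Of 30 genes, 19 were called lower and 0 higher with edgeR, against 2.73% and 1.29% of all genes. DESeq2 called 27 lower and 0 higher, against 8.0% and 6.53% of all genes. The median log2 fold change was -2.42. The largest falls were in MCM6, a subunit of the replicative helicase, from 57.6 and 121 CPM in DMSO to 9.20, 9.44 and 5.90 CPM (log2 fold change -3.45, SE 0.36, edgeR adjusted p = 0.00261), and in CLSPN, which encodes the checkpoint adaptor claspin. CLSPN went from 64.2 and 81.1 CPM to 7.0, 10.3 and 3.50 CPM (log2 fold change -3.40, SE 0.41, edgeR adjusted p = 0.00431). Without 0.2 μM replicate 1, 0.2 μM replicate 2 or the 0.34 μM library, the edgeR adjusted p of CLSPN was 0.0162, 0.0113 and 0.00325. For MCM6 these values were 0.00927, 0.0171 and 0.00677. Without DMSO replicate 1, which leaves a single DMSO library, CLSPN was not called (log2 fold change -3.57). PCNA, the replication clamp, which p53 can also induce, alone in the list had a positive log2 fold change (1.01, edgeR adjusted p = 0.117) and was singled out after its values were seen. The count of lower calls was 13, 0, 7, 5 and 9 without DMSO replicate 1, DMSO replicate 2, 0.2 μM replicate 1, 0.2 μM replicate 2 and the 0.34 μM library, against 162, 29, 136, 160 and 140 over all genes. The median gene of this list lay 0.83 higher on the log2 scale in DMSO replicate 2 than in DMSO replicate 1. E2F1 and E2F2 differed between these libraries in the same direction. The part of this in the results was not tested beyond the fit with a replicate block.

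**Figure D4:**
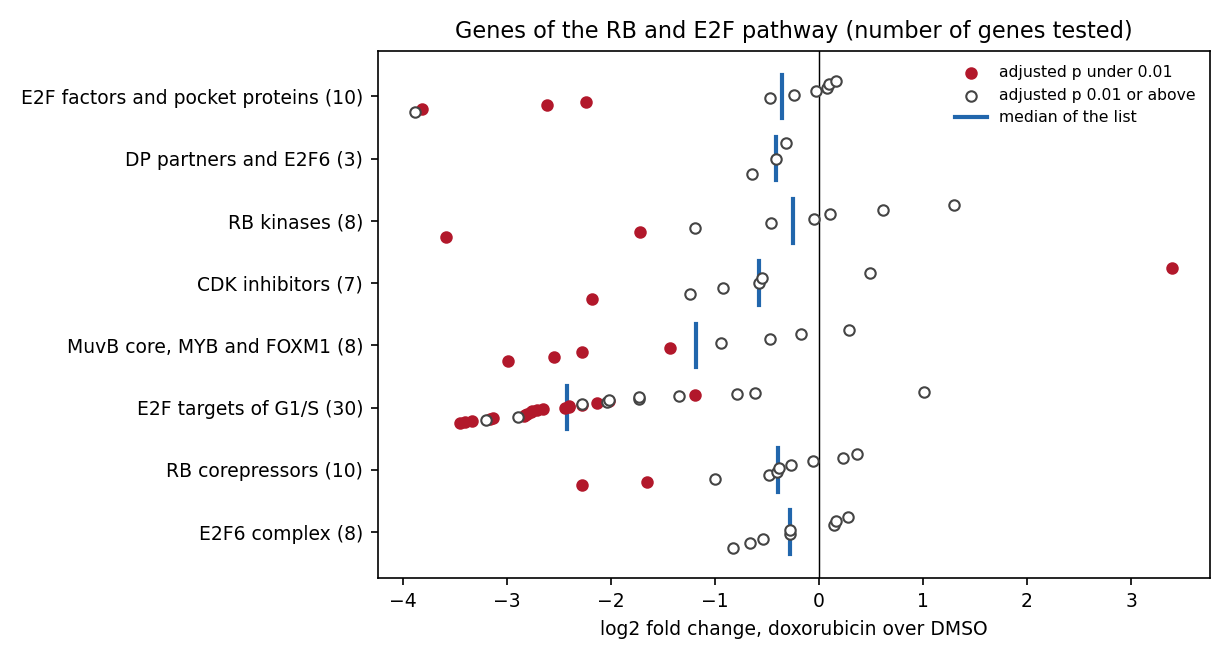
Log2 fold change, doxorubicin over DMSO, of every tested gene of the 10 E2F factors and pocket proteins and of 7 pathway lists (1 point per gene, filled where the edgeR adjusted p is under 0.01), with the median of each list as a bar. The G1/S targets lie furthest to the left with a median of -2.42, and CDKN1A at 3.39 is the only filled point to the right of 0.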

How the data were processed

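The authors used STAR to align the paired-end reads to hg38 and deposited raw counts per gene from featureCounts (Rsubread, iGenomes annotation). Versions, strand setting and multi-mapping treatment were not given in the sources used here. A deposited table of the authors' own DESeq2 comparison (mean normalized counts, log2 fold changes, p-values) was not used.

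In R 4.3.3, edgeR 4.0.16 (quasi-likelihood test, TMM, filterByExpr with min.count 10 and min.total.count 15) compared 3 doxorubicin with 2 DMSO libraries, without covariates. P-values were adjusted by Benjamini-Hochberg over 14187 genes, with a threshold of 0.01. Standard errors were derived from the F statistic, as the size of the log2 fold change over the root of F. DESeq2 1.42.0 (independent filtering off) and limma 3.58.1 (voom) were alternatives. Ratios and figures used Python 3.11.15, scipy 1.17.1 and matplotlib 3.10.9. The code was tested on simulated data. Transcript lengths came from GENCODE v44 (GRCh37 mapping), and positions and promoters from RefSeq. RB1 was left out of the promoters because its entry lay 172699 bases from the gene's start. No chi-square showed replicates within sampling noise. Lists were compiled from general knowledge.

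Named genes were all 10 members, the DP partners and E2F6, the 2 largest called changes per direction of each other list, CDKN1A and MDM2, and the 3 genes most correlated with E2F1, E2F4, E2F7 and RB1. Others are marked as named after their values were seen. Members and lists were chosen with earlier results of these data known. Alternatives were the tool, normalization, filter, threshold, depth, dose grouping, replicate block, single libraries and transcript length.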

Additional observations from a re-analysis of the deposited data

How the results depend on the processing

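No called gene reversed its direction under any alternative run, but the number of calls depended on the libraries. Against 3 lower calls among the 10 genes, 0 were obtained with 0.2 μM alone, 0 with 0.34 μM alone and 0 with the 4 numbered libraries without a block, and leaving out single libraries gave 0 to 2. Against 28 lower calls over the pathway lists these settings gave 10, 1 and 11, and 0 to 18 without single libraries, and DESeq2 gave 42. The 1 higher call over the lists, CDKN1A, became 0 to 1 without single libraries. Lower calls over all genes fell too. They went from 388 to 136 without 0.2 μM replicate 1 and to 160 without 0.2 μM replicate 2. Without the 0.34 μM library, which leaves the 4 numbered libraries without a block, they were 140. For a single dose alone and for the replicate block, no count over all genes is given. The counts at those settings therefore do not single out these genes. With a DMSO library left out, the lone one is assumed to vary like the other groups. The replicate numbers share only a number, since 2 pairs cannot show a pairing (their deviations correlated with r = 0.528 across 14187 genes, which are not independent). With the 4 numbered libraries and the replicate block, edgeR gave 4 lower calls among the 10 genes, 37 lower and 2 higher over the lists. The 4 were E2F1, E2F2, E2F8 and RBL1, with log2 fold changes of -2.37, -3.49, -3.49 and -2.18. The activator share in DMSO was 45.2% with merged exon lengths, and in doxorubicin 30.1% with these and 30.6% without division by length, against 37.1% and 23.1%. Depth limits E2F2 and E2F8, with 10 to 41 counts in doxorubicin libraries. The median of all genes moved by less than 0.1 on the log2 scale between scalings.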

Other observations

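Of 10 corepressors that pocket proteins recruit, 2 were called lower and 0 higher with edgeR, against 2.73% and 1.29% of all genes. Both encode enzymes that modify chromatin. SUV39H1, a histone H3 lysine methyltransferase, had 17.1 and 25.1 CPM in DMSO and 4.25, 5.07 and 3.78 CPM in doxorubicin, a log2 fold change of -2.27 (SE 0.25, edgeR adjusted p = 0.00321). DNMT1, the maintenance DNA methyltransferase, had 235 and 299 CPM in DMSO and 88.2, 86.1 and 80.1 CPM in doxorubicin (log2 fold change -1.65, SE 0.16, edgeR adjusted p = 0.00192). Both calls were lost without any 1 of the doxorubicin libraries (edgeR adjusted p between 0.012 and 0.0162). The median of the list was -0.39, and DESeq2 called 4 lower, against 8.0% of all genes. Of 8 genes of the E2F6 complex, a Polycomb complex that holds E2F6 and MGA, edgeR and limma voom called 0. At an unadjusted p under 0.05 edgeR gave 2 lower, against 15.6% of all genes. DESeq2 called 1 lower, against 8.0% of all genes, and the median was -0.28.

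The genes whose log2 CPM over the 5 libraries was most like that of a member were sought among 11755 genes, as a description, since 5 libraries with 2 treatments leave many genes with a similar order. For E2F1 they were NUP205, CEP170 and XPO1, each with Pearson's r of 0.999. NUP205 had 87.1 and 140 CPM in DMSO and 44.4, 50.6 and 38.5 CPM in doxorubicin, a smaller fall than that of E2F1. For E2F4 they were SNHG17 (r = 0.999), DGAT2 (0.999) and FKBP4 (0.998), for E2F7 ABRACL (0.9999), NR1D2 (0.998) and NKIRAS1 (0.997), and for RB1 GGNBP2 (0.998), USP25 (0.997) and TRIM6 (0.997).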
